A study of Homo sapiens with 12 samples.

Results

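The genes described here are PPARA and 8 genes of mitochondrial fatty acid oxidation and its control: PPARGC1A, CPT1A, CPT2, ACADM, ACADVL, HADHA, HADHB and PDK4. They were chosen by name, because the histone demethylase KDM3A is known to regulate genes of this kind in other tissues, and they make up 9 of the 19775 genes that the array annotation names. Earlier results of these data were known when they were chosen, so the shares of members called below are a description. The annotation assigns 26 probe sets to these genes alone. Of these, 20 probe sets passed a filter on dim signals (a mean signal over the 12 arrays of at least 33.6), and they cover 8 of the 9 genes. Both PPARGC1A probe sets lay under the filter, so PPARGC1A was not tested.

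The samples were 12 Affymetrix U133 Plus 2.0 arrays of total RNA from cultures of 2 human cancer lines, the bladder carcinoma line SW780 and the lung carcinoma line A549. In each line 2 arrays came from cells given siKDM3A, a small interfering RNA against KDM3A, 2 from cells given siFFluc and 2 from cells given siEGFP. siFFluc and siEGFP are named for firefly luciferase and green fluorescent protein, foreign genes that such lines do not carry, and serve as controls here. All cells received their duplex at 100 nM with Lipofectamine 2000 for 24 h. SW780 was grown in Leibovitz's L-15 medium and A549 in RPMI1640, so line and medium cannot be told apart. The labels do not say whether the 2 arrays of a group were separate cultures, and the p-values below cover no more than how far such arrays scatter, perhaps for technical reasons alone.

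Mitochondria burn long fatty acids after CPT1A, on the outer membrane, has joined them to carnitine and CPT2, on the inner membrane, has handed them back to coenzyme A. ACADVL and ACADM carry out the first step of each round of beta-oxidation for very long and medium chains, and the trifunctional protein, built from HADHA and HADHB, carries out the later steps. PPARA is a nuclear receptor that fatty acids activate. It pairs with a retinoid X receptor and switches on most of these genes in liver and muscle, with PPARGC1A as a coactivator, while PDK4 spares glucose by switching off pyruvate dehydrogenase. KDM3A removes methyl groups from lysine 9 of histone H3, and in mice its loss lowers Ppara in muscle.

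KDM3A itself had signals of 196.8 and 223.0 under siKDM3A in SW780, against 359.1 to 432.6 in the 4 control arrays. In A549 it had 692.5 and 712.4, against 1299.7 to 1518.6. The knockdown arrays lay below all controls in both lines, at 53.3% of the mean control signal in SW780 and 50.5% in A549 (log2 fold change -0.86 ± 0.10 SE and -0.97 ± 0.10, adjusted p = 2.74e-04 and 8.34e-05, limma). The median signal of an array was 58.1 and 54.3 under siKDM3A in SW780, against 50.3 to 54.2 in the controls, and 53.1 and 51.9 in A549, against 57.4 to 59.1, so the knockdown arrays lay above their controls in SW780 and below them in A549. Replicate arrays correlated at r = 0.982 to 0.989 across genes, which are not independent replicates. Urothelial markers summed to 25777 to 33951 in SW780, with GATA3, UPK1B, GRHL3 and UPK1A high, and to 6694 to 7205 in A549, where the signal was mostly that of KRT5. The other urothelial markers on the array were dimmer in the SW780 controls. UPK3B had 613.0 to 1104.7, KRT5 90.9 to 291.3, UPK2 77.6 to 194.1, KRT20 46.8 to 115.6 and UPK3A 4.2 to 9.3. Of the 7 lung markers on the array the transcription factor gene FOXA2 was bright in A549 (827 ± 119 under siKDM3A and 1069 ± 101 in the controls). The surfactant gene SFTPB had 161.3 to 210.8 and NAPSA 82.6 to 120.8 in the A549 controls, while NKX2-1, SFTPC, SCGB1A1 and SFTPD stayed at or under 67.8 there. In the SW780 controls FOXA2 had 38.0 to 60.6, NAPSA 9.2 to 65.7, SFTPB 116.7 to 141.6 and SFTPC 84.4 to 147.7. NKX2-1, SCGB1A1 and SFTPD stayed at or under 93.8 there. SFTPC was thus brighter in the SW780 controls than in those of A549. Under siKDM3A the mean of SFTPB was 159.3 in SW780 and 99.9 in A549. The number of arrays limits the precision of all that follows.

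Across the members, siKDM3A went with a lower CPT1A signal in both lines, the largest fall among the 8 members tested, and with changes of other members that passed the test in 1 line each. In SW780, 5 of the 8 changed, with PDK4 and ACADM higher and CPT1A, ACADVL and HADHA lower, against 11.8% of all 14061 genes tested (5.68% higher and 6.15% lower). In A549, 2 of the 8 changed, with PPARA higher and CPT1A lower, against 11.7% of all genes (5.33% higher and 6.35% lower). CPT2 and HADHB passed in neither line. A change is the log2 difference on the log2(signal + 16) scale between siKDM3A and the mean of the 2 control siRNAs, which understates changes of dim genes, and a gene was called where limma's p, adjusted over all genes by the Benjamini-Hochberg method, was under 0.05. The test of a different response in the 2 lines called none of the 8, against 2.75% of all genes, and 3 of them had an unadjusted p under 0.05 there (ACADM, ACADVL and PDK4). A call in 1 line alone therefore does not show that the lines differed.

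**Figure D1:**
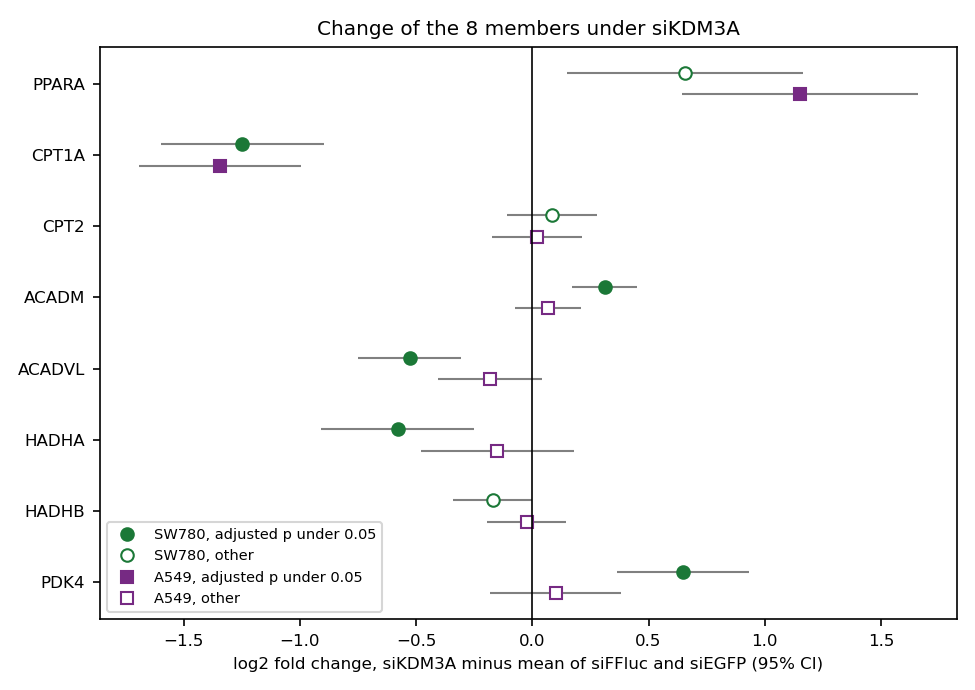
Log2 fold change of the main probe set of each of the 8 members tested (siKDM3A minus the mean of the siFFluc and siEGFP means, with 95% confidence intervals from limma), SW780 as circles and A549 as squares, filled where the adjusted p was under 0.05. CPT1A lay furthest left in both lines, at -1.25 in SW780 and -1.34 in A549, and PPARA furthest right, at 0.66 and 1.15.

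CPT1A, the entry step that sets how fast long fatty acids reach the mitochondrial matrix, was the only member that passed in both lines. The share of all genes that passed in both was not computed. The main CPT1A probe set, 203633_at, gave 112.1 and 82.0 under siKDM3A in SW780, against 233.4 and 264.3 under siFFluc and 265.7 and 238.1 under siEGFP. In A549 it gave 484.0 and 322.8 under siKDM3A, against 1076.0 and 1125.6 under siFFluc and 954.6 and 968.3 under siEGFP. In both lines the knockdown arrays lay far below all 4 controls, a place held by 13.3% of all genes in SW780 and 19.9% in A549, and the controls of a line lay close together. The siKDM3A signal came to 38.8% of the control mean in SW780 and 39.1% in A549. The log2 fold change was -1.25 ± 0.16 (adjusted p = 4.54e-04) in SW780 and -1.34 ± 0.16 (adjusted p = 1.98e-04) in A549. The difference of these falls, SW780 minus A549, was 0.10, with a 95% interval of -0.40 to 0.59 (adjusted p = 0.867). CPT1A was called against siFFluc alone and against siEGFP alone in both lines, and in all 24 alternative settings, which included the loss of any 1 array.

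The other CPT1A probe sets did not repeat this size. Probe set 210688_s_at had 48.3 and 69.1 under siKDM3A in SW780, against 49.5 to 114.5 in the controls, and 111.4 and 108.9 in A549, against 101.6 to 136.5. Probe set 203634_s_at had 52.7 and 89.4 in SW780, against 82.5 to 105.8, and 89.6 and 95.2 in A549, against 93.4 to 128.0. The arrays of the groups overlapped on both, and neither was called in either line (log2 fold changes of -0.35 and -0.34 in SW780 and -0.11 and -0.22 in A549). The fourth, 210687_at, lay under the filter. With the mean of the 3 kept probe sets in place of the brightest, CPT1A was still called lower, at -0.65 in SW780 and -0.56 in A549.

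CPT1A also set the lines apart. In the control arrays the log2 difference, SW780 minus A549, was -1.97 ± 0.13 (adjusted p = 1.73e-08), and the siKDM3A arrays of A549, at 484.0 and 322.8, still lay above all 6 SW780 arrays. Its promoter is shown because CPT1A was the member with the most even fall. The 250 bases before its start (RefSeq, GRCh38.p14, chr11:68844278-68844527, minus strand, 5′ to 3′, no part marked) are rich in A and T far from the start, and the 300-base window around the start is 50% G and C.
CPT1A: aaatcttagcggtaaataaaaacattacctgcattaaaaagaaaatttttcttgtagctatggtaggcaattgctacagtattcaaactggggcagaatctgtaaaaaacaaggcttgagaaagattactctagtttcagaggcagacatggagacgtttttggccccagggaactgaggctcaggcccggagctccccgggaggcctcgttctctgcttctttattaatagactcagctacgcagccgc

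The 9 members had 12 such windows in the RefSeq table, 3 members having 2, and all were searched on both strands for nuclear receptor motifs. The hexamer AGGTCA occurs in 13.8% of the 35116 promoter windows of the table. Its direct repeat AGGTCANAGGTCA, the form that PPAR and RXR pairs bind, occurs in 0.0228%, and TCAAGGTCA, the extended form that holds the hexamer too, in 0.353%. None of the 12 windows held any of these exact letters. The longer forms are so rare over all windows that their absence from 12 says nothing about the members. Sites with other letters or outside the windows were not searched. The windows of PPARA stood out in base composition, with 85.7% and 86.7% G and C.

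**Figure D2:**
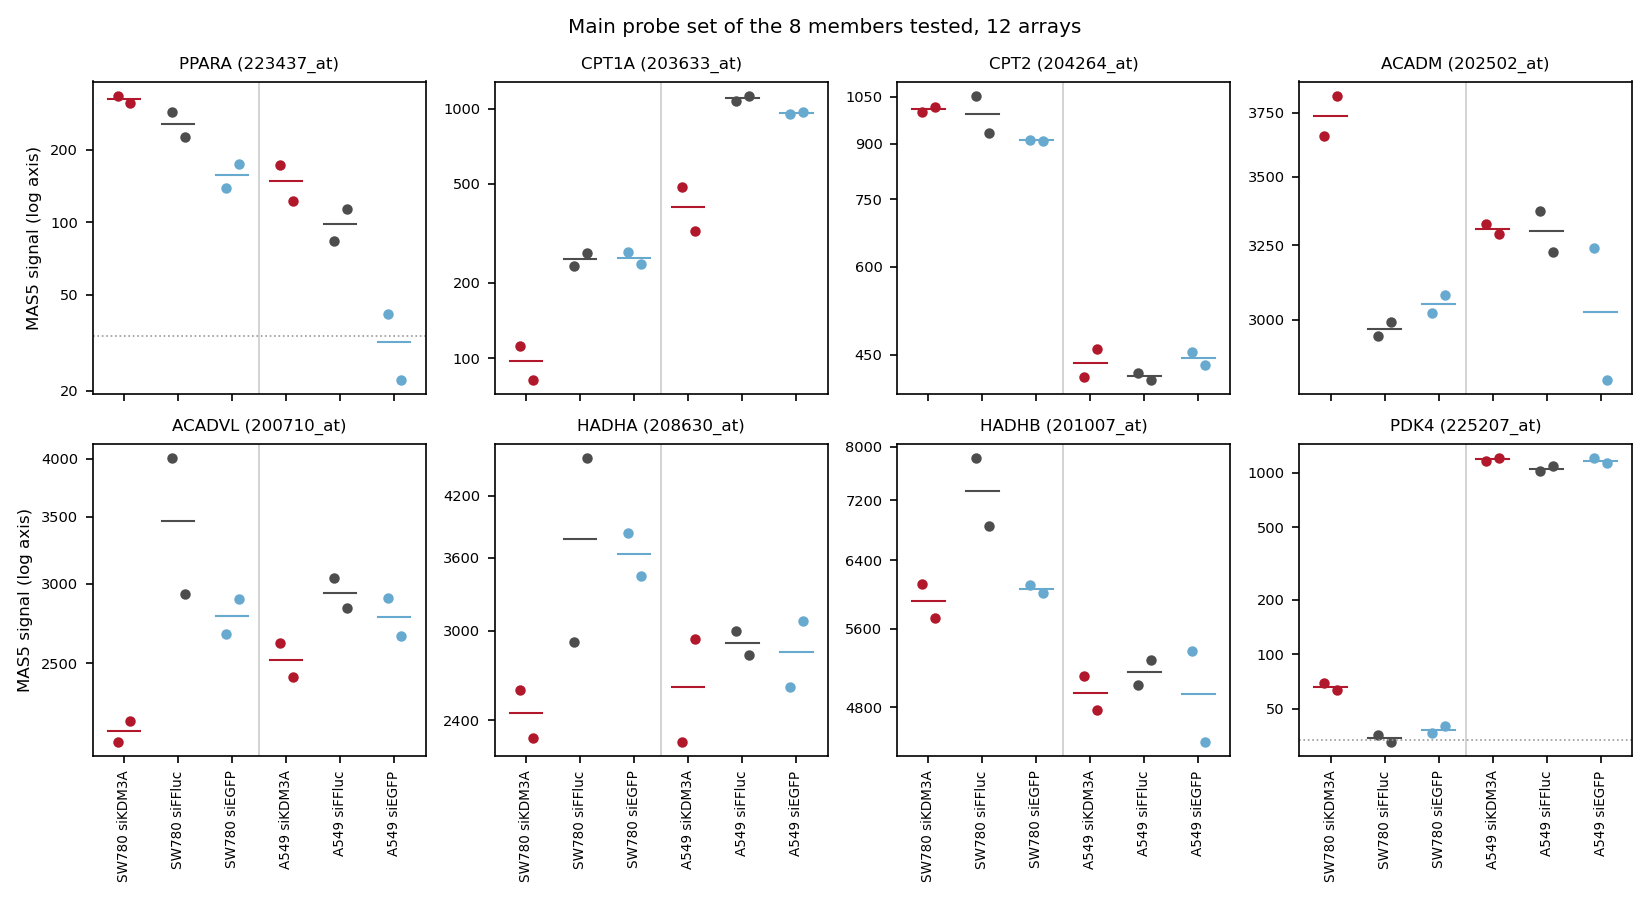
MAS5 signal of the main probe set of each of the 8 members tested on all 12 arrays (log axis, own scale in each panel), points for arrays and bars for group means, siKDM3A in red, siFFluc in grey and siEGFP in blue. The dotted line in the PPARA and PDK4 panels is the filter at 33.6. The CPT1A knockdown arrays sit at 82.0 to 112.1 in SW780 and 322.8 to 484.0 in A549, below all controls of their line.

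PPARA, the receptor, was higher under siKDM3A by its main probe set, but the size depended on which control siRNA it was set against. Probe set 223437_at gave 335.0 and 313.5 under siKDM3A in SW780, against 287.8 and 225.2 under siFFluc and 138.8 and 174.9 under siEGFP. In A549 it gave 173.3 and 122.9 under siKDM3A, against 83.6 and 113.3 under siFFluc and 41.6 and 22.2 under siEGFP. The knockdown arrays lay above all 4 controls in each line, as those arrays did for 15.3% of all genes in SW780 and 17% in A549, and the siEGFP arrays were the lowest in each. In A549 the siEGFP mean of 31.9 lay under the filter value. The log2 fold change was 0.66 ± 0.23 in SW780, which did not pass (adjusted p = 0.0920), and 1.15 ± 0.23 in A549, which did (adjusted p = 0.00718). Averaged over the lines it was 0.90 ± 0.17 (adjusted p = 0.00228), a comparison that called 6 of the 8 members and 18.2% of all genes. The averaged PPARA call was lost against siFFluc alone (0.42, adjusted p = 0.156). It was also lost with the mean of the kept probe sets (0.33, adjusted p = 0.194). The test of a different response did not pass (-0.50, 95% interval -1.21 to 0.22, adjusted p = 0.471).

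Against siFFluc alone the PPARA difference was 0.33 in SW780 (adjusted p = 0.472) and 0.51 in A549 (adjusted p = 0.279), and neither passed. Against siEGFP alone it was 0.98 in SW780 (adjusted p = 0.0501) and 1.79 in A549 (adjusted p = 0.00134). The controls themselves differed in A549, with siFFluc above siEGFP by 1.27 ± 0.27 (adjusted p = 0.0226), which is as large as the change under siKDM3A. PPARA was the only 1 of the 8 members to differ between the controls in A549, where 2.92% of all genes did. In SW780, 0 of the 8 differed between the controls by limma's adjusted p, against 5.57% of all genes, with 3 at an unadjusted p under 0.05 (PPARA, ACADVL and HADHB). The A549 call also ended without A549 siKDM3A replicate 1 (0.93, adjusted p = 0.119), the brighter of the pair.

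In order of mean signal, this PPARA probe set was highest in SW780 siKDM3A (324), then SW780 siFFluc (257), SW780 siEGFP (157), A549 siKDM3A (148), A549 siFFluc (98.5) and A549 siEGFP (31.9). Of these neighbours, siKDM3A and siFFluc did not differ by the test in either line, nor did siFFluc and siEGFP in SW780, and the arrays of SW780 siEGFP and A549 siKDM3A overlapped. The step between siFFluc and siEGFP in A549 was past the threshold. Control arrays of SW780 were above those of A549 by 1.56 ± 0.19 (adjusted p = 7.10e-06).

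**Figure D3:**
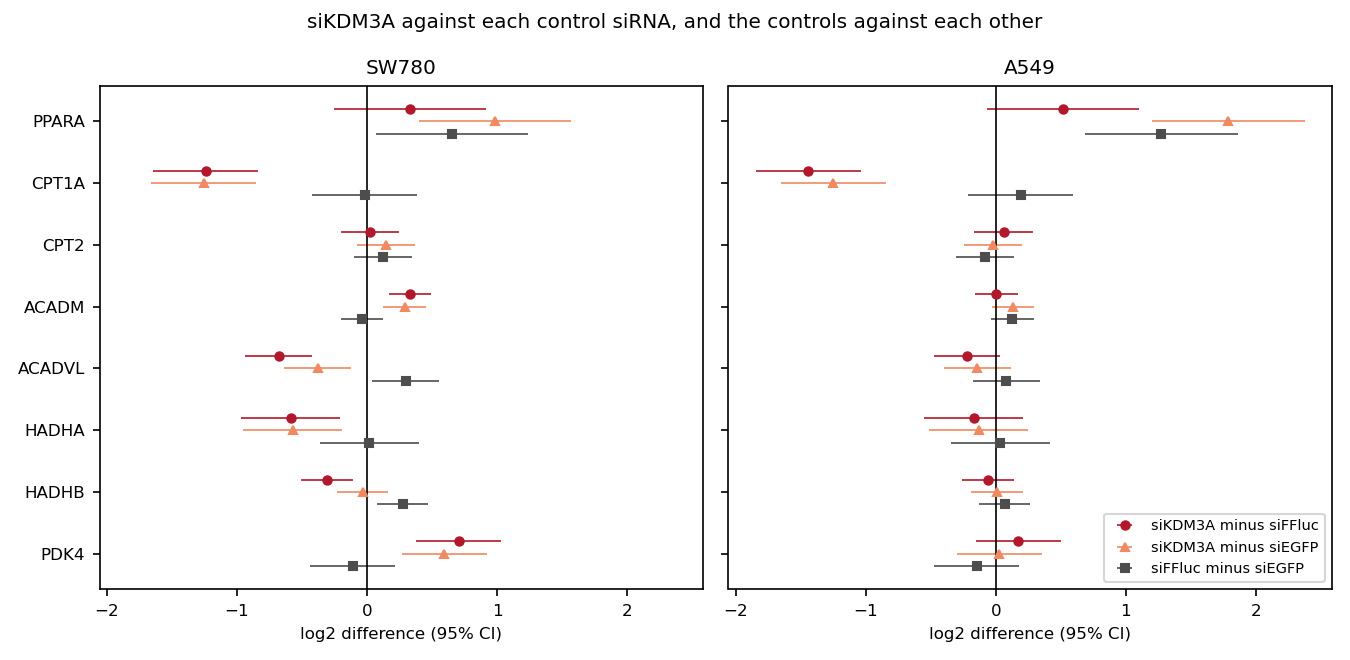
Log2 difference of each member's main probe set with its 95% confidence interval, for siKDM3A minus siFFluc (circles), siKDM3A minus siEGFP (triangles) and siFFluc minus siEGFP (squares), in SW780 on the left and A549 on the right. For CPT1A both knockdown comparisons sit near each other and the controls near 0, while for PPARA in A549 the controls differ by 1.27 and siKDM3A exceeds siFFluc by 0.51. The comparisons share arrays and are not independent.

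The 9 PPARA probe sets disagreed. Of the 7 that passed the filter, 2 were called higher in A549, where 8.08% of all probe sets were called and 3.04% called higher, and 0 in SW780, where 7.67% were. In SW780, 2 of the 7 had an unadjusted p under 0.05 in limma's fit over probe sets, and in A549 4 did. Probe set 226978_at had 204.2 and 226.3 under siKDM3A in SW780, against 176.3 and 259.1 under siFFluc and 121.6 and 112.6 under siEGFP. In A549 it had 77.3 and 74.3 under siKDM3A, against 68.5 and 77.7 under siFFluc and 16.2 and 4.2 under siEGFP. Here the siKDM3A and siFFluc arrays overlapped in both lines and siEGFP stood below both. Both A549 siEGFP signals lay under the filter value, so differences that rest on them give no exact size. The call of 226978_at in A549 (0.95 ± 0.25, adjusted p = 0.0348) came with a difference of 0.04 from siFFluc alone (adjusted p = 0.960), and with siFFluc above siEGFP by 1.80 ± 0.29 (adjusted p = 0.00463). That call ended under 10 of 23 alternatives, among them the loss of either A549 siKDM3A array (adjusted p = 0.205 without replicate 1 and 0.184 without replicate 2), of either A549 siFFluc array (0.0878 and 0.0660), of A549 siEGFP replicate 2 (0.0807) and of SW780 siEGFP replicate 1 (0.0502).

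Probe sets 223438_s_at and 244689_at showed the same low siEGFP signals in A549 without a call. In A549, 223438_s_at had 38.1 and 41.9 under siKDM3A, against 44.8 and 46.0 under siFFluc and 4.6 and 17.0 under siEGFP (0.48, adjusted p = 0.367). In A549, 244689_at had 54.9 and 51.4 under siKDM3A, against 41.8 and 48.5 under siFFluc and 16.1 and 4.1 under siEGFP (0.81, adjusted p = 0.181). In all, the siEGFP arrays lay below the other 4 arrays of the line on 4 of the 7 PPARA probe sets in A549, where 8.75% of all probe sets did so, and on 3 of the 7 in SW780, against 8.29%. On 226978_at, 223438_s_at and 244689_at the A549 siEGFP signals, 4.1 to 17.0, lay under the filter value. Probe sets of 1 gene can share transcripts, so they are not separate observations.

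The remaining kept probe sets went otherwise. Probe set 206870_at had 11.4 and 30.8 under siKDM3A in A549, against 33.7 and 46.1 under siFFluc and 65.2 and 70.4 under siEGFP, a difference of -0.93 that did not pass (adjusted p = 0.127). Here the knockdown arrays lay below all controls and siEGFP was the highest group, the reverse of the main probe set. In SW780 the same probe set had 70.9 and 72.0 under siKDM3A, inside the control range of 28.4 to 84.2. Probe set 1560981_a_at differed by -0.04 in SW780 and 0.30 in A549, and 210771_at by -0.21 and -0.54, with no call. The dimmest, 1558631_at and 237142_at, lay under the filter, although 1558631_at had 96.9 and 53.1 under siKDM3A in SW780, against 43.0 and 69.3 under siFFluc and 36.9 and 33.7 under siEGFP. With the mean of all 7 kept probe sets, the A549 difference of PPARA was 0.32 (adjusted p = 0.453).

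**Figure D4:**
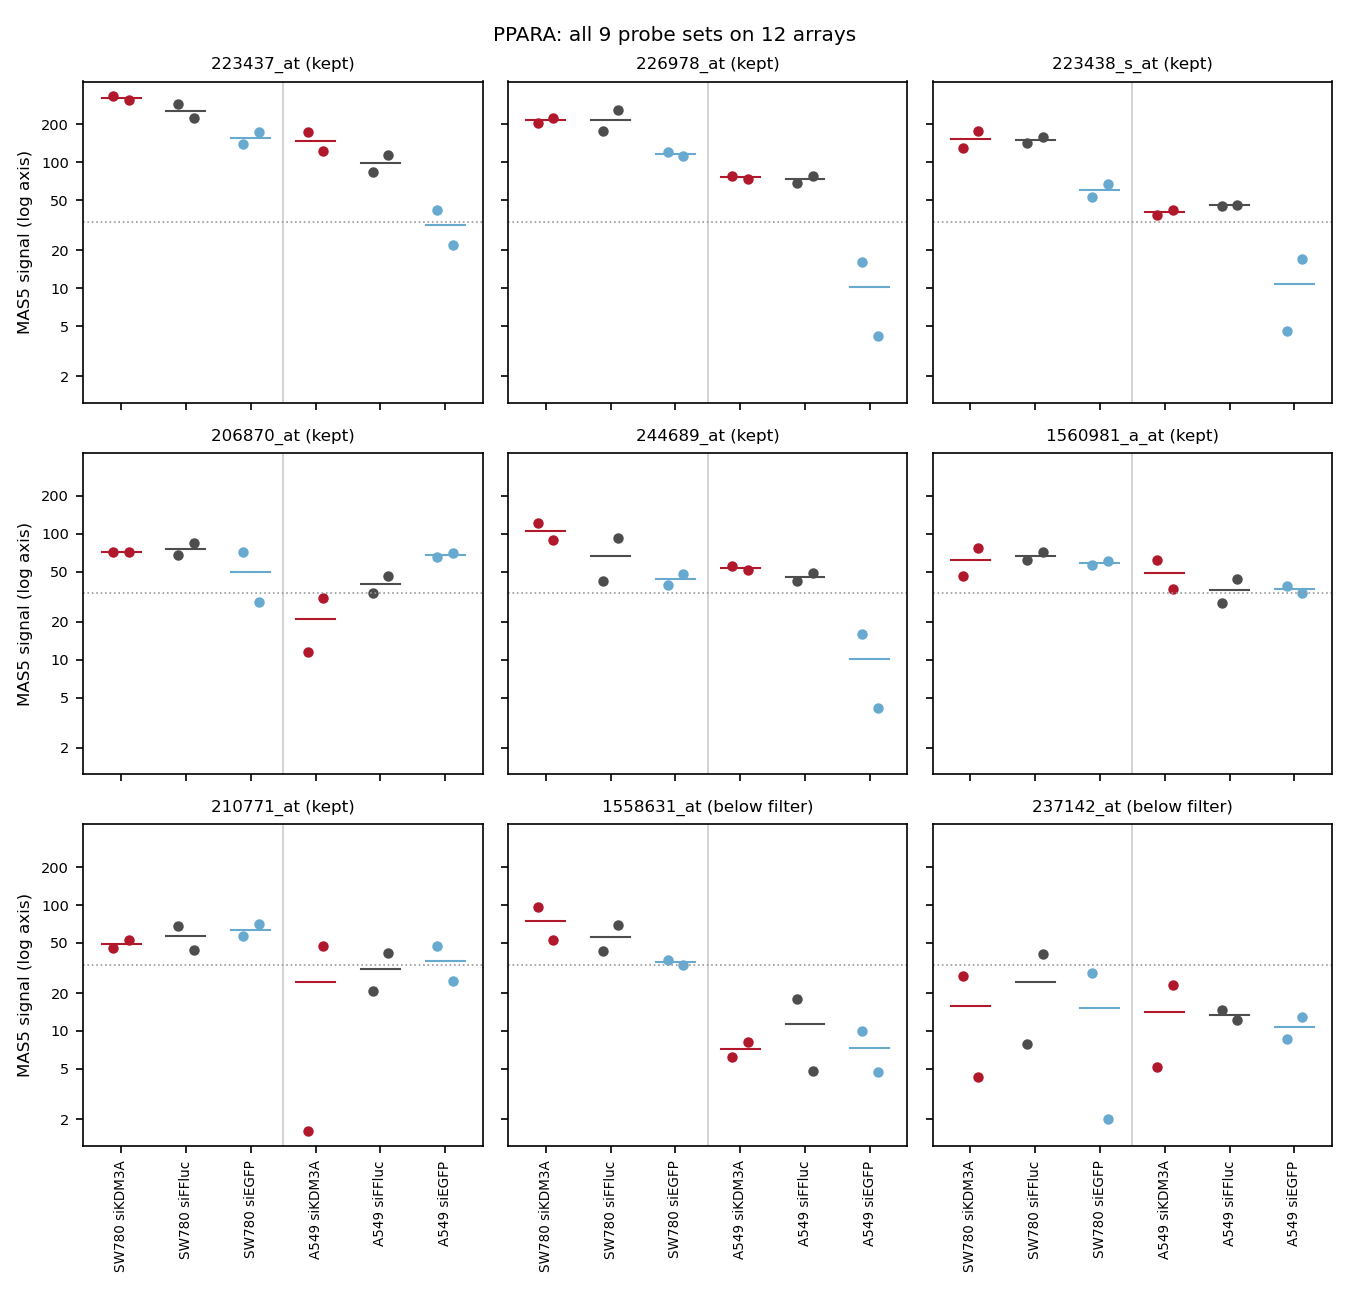
MAS5 signal of all 9 PPARA probe sets on the 12 arrays (common log axis), points for arrays and bars for group means, siKDM3A in red, siFFluc in grey and siEGFP in blue, SW780 left of A549. The dotted line is the filter at 33.6. On 223437_at, 226978_at, 223438_s_at and 244689_at the siEGFP arrays of A549 sit lowest, between 4.1 and 41.6, while on 206870_at they sit highest, at 65.2 and 70.4.

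The 4 genes whose pattern was most like that of PPARA had their lowest signals in A549 on the siEGFP arrays too. In SW780 that held for 3 of them, CAVIN2 being dim there (1.4 to 31.8). Likeness was the root mean square difference between centred log2 signals, each gene being centred within each line over its 6 arrays, and its median over all genes was 0.676. The nearest were MBIP (0.278), CAVIN2 (0.293), FHIP2A (0.307) and TLE4 (0.323). MBIP, for one, had 933.0 and 878.7 under siKDM3A in SW780, against 646.6 and 622.4 under siFFluc and 352.2 and 388.1 under siEGFP. In A549 MBIP had 732.3 and 637.4, against 703.9 and 757.6 under siFFluc and 380.3 and 296.6 under siEGFP, with siKDM3A and siFFluc overlapping. These 4 were selected for their likeness, and their values are a description.

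PPARGC1A, the coactivator, gave signals of 1.9 to 25.3 on 219195_at and 1.6 to 36.8 on 1569141_a_at over the 12 arrays, which leaves no level to compare. On 1569141_a_at it had 23.3 and 2.7 under siKDM3A in SW780, against 3.1 to 16 in the controls, and 36.8 and 16.1 in A549, against 1.6 to 10.7. The A549 knockdown arrays lay above their controls there, and on 219195_at they had 3.6 and 18.9, against 18.0 to 25.3. Both probe sets went untested.

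CPT2, which hands fatty acids back to coenzyme A inside the mitochondrion, did not pass in either line. It had 999.7 and 1015.3 under siKDM3A in SW780, against 909.1 to 1053.6 in the controls, and 417.3 and 458.6 in A549, against 414.4 to 453.2. The groups overlapped in both lines, and the 95% interval of the change was -0.11 to 0.28 in SW780 and -0.18 to 0.21 in A549. On probe set 204263_s_at, SW780 had 689.5 and 576.9 under siKDM3A, against 687.1 to 834.7 in the controls, which also overlapped. The siKDM3A mean in SW780 was 82.7% of the control mean there, against 105.9% on the main probe set. CPT2 differed between the lines instead, 1.11 ± 0.07 higher in SW780 controls than in A549 controls (adjusted p = 1.60e-08), and its second probe set, 204263_s_at, gave 1.16.

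The enzymes of beta-oxidation moved in opposite directions in SW780. ACADM, the medium-chain dehydrogenase, had 3656.4 and 3818.6 under siKDM3A in SW780, against 2948.0 and 2991.3 under siFFluc and 3021.0 and 3082.4 under siEGFP. All knockdown arrays lay above all controls, by 0.31 ± 0.07 on the log2 scale (adjusted p = 0.00904). ACADM was called against each control alone, at 0.33 against siFFluc and 0.29 against siEGFP. Leaving out SW780 siKDM3A replicate 2 took the call away (0.28, adjusted p = 0.0950), as did scaling all arrays to the same median (0.21, adjusted p = 0.124). In A549 it had 3327.3 and 3291.2, within the control range of 2812.9 to 3371.8 (0.07, adjusted p = 0.583).

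ACADVL, the very-long-chain dehydrogenase, had 2087.4 and 2186.8 under siKDM3A in SW780, against 4006.8 and 2930.7 under siFFluc and 2674.7 and 2894.7 under siEGFP. The knockdown arrays were the lowest, and SW780 siFFluc replicate 1 stood far above the other controls. The log2 fold change was -0.53 ± 0.10 (adjusted p = 0.00574), and it passed against siFFluc alone (-0.68) and not against siEGFP alone (-0.38, adjusted p = 0.0820). The call also ended without SW780 siKDM3A replicate 1 (-0.49, adjusted p = 0.0669). In A549 ACADVL had 2619.7 and 2419.5, against 2658.5 to 3040.3, also below all controls, as 19.9% of all genes were, and it did not pass (-0.18, adjusted p = 0.308).

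HADHA and HADHB encode the alpha and beta subunits of the trifunctional protein. HADHA had 2586.2 and 2298.4 under siKDM3A in SW780, against 2917.5 and 4614.8 under siFFluc and 3824.3 and 3440.0 under siEGFP on its main probe set. The knockdown arrays lay below all controls, and the siFFluc pair was uneven. The log2 fold change was -0.58 ± 0.15 (adjusted p = 0.0268). Its other probe sets gave -0.66 and -0.44, so all 3 were called lower in SW780, where 4.32% of all probe sets were, and none of the 3 in A549, where the changes ran from -0.18 to -0.06 and the smallest adjusted p by limma over probe sets was 0.221. The main probe set lost its call against siEGFP alone (-0.57, adjusted p = 0.0773), without SW780 siKDM3A replicate 1 (-0.66, adjusted p = 0.0910), without SW780 siKDM3A replicate 2 (-0.49, adjusted p = 0.201) and without SW780 siEGFP replicate 1 (-0.54, adjusted p = 0.0789). On SW780 siFFluc replicate 1 the probe sets disagreed, with the lowest control signal of the line on 208630_at (2917.5) and the highest on 208631_s_at (4677.7).

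HADHB had 6113.8 and 5715.2 under siKDM3A in SW780, against 7826.7 and 6852.0 under siFFluc and 6102.5 and 6000.5 under siEGFP. The knockdown arrays overlapped siEGFP and lay below siFFluc. The difference of -0.17 ± 0.08 did not pass (adjusted p = 0.194), although it did against siFFluc alone (-0.31, adjusted p = 0.0403). In A549 HADHB had 5098.2 and 4773.5, within the controls at 4486.1 to 5357.3 (-0.03).

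The starts of HADHA and HADHB lie 306 bases apart on chromosome 2 and point away from each other, so their promoter windows overlap, and the shared stretch is shown because the 2 subunits were read on opposite sides of the threshold in SW780. The 250 bases before the HADHB start (RefSeq, GRCh38.p14, chr2:26244689-26244938, plus strand, 5′ to 3′) have in capitals the 194 bases that also fall in the HADHA window.
HADHB: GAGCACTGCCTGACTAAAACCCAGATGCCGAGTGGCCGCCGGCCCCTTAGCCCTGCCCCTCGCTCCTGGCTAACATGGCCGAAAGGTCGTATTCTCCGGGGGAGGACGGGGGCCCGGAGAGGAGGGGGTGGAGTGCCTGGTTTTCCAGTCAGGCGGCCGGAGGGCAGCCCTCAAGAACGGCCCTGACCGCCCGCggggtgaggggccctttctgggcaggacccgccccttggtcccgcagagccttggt

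PDK4, the kinase that switches off pyruvate dehydrogenase when fat is burnt, had 69.3 and 63.2 under siKDM3A in SW780, against 35.9 and 33.0 under siFFluc and 36.7 and 40.2 under siEGFP. The knockdown arrays lay clear above tightly grouped controls. The log2 fold change was 0.65 ± 0.13 (adjusted p = 0.00696), and it was called against each control alone, at 0.70 against siFFluc and 0.59 against siEGFP. The control signals sat near the filter value, where the constant of 16 shrinks a fold, and the second kept probe set, 205960_at, read 5.0 and 3.0 under siKDM3A in SW780, against 2.3 to 12.2. PDK4 lost its call when SW780 siKDM3A replicate 1 was left out (0.60, adjusted p = 0.0569), in a fit of the SW780 arrays alone (adjusted p = 0.261) and with the mean of both probe sets (0.28, adjusted p = 0.373).

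In A549 PDK4 was bright, at 1165.6 and 1210.8 under siKDM3A, against 1018.4 to 1204.4 in the controls, with no call (0.10, adjusted p = 0.706). The log2 difference of the controls, SW780 minus A549, was -4.42 ± 0.11, the widest gap between lines of the 8 members. On 205960_at all 6 SW780 arrays lay under the filter value, at 2.3 to 12.2, against 86.4 to 125.5 in A549, and no size is given for that gap. Of the 8, 6 differed between the control arrays of the lines, against 68.9% of all genes (30.1% higher and 38.8% lower in SW780). PPARA, CPT2, HADHA (0.34) and HADHB (0.41) were higher in SW780, CPT1A and PDK4 were lower, and ACADM (-0.07) and ACADVL (0.11) did not pass.

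The ratio of 3′ to 5′ control probe sets for beta-actin, a sign of RNA quality, was 1.51 and 1.61 in the SW780 siKDM3A arrays, against 1.39 to 1.44 in the SW780 controls, and 1.16 and 1.19 in the A549 siKDM3A arrays, against 1.20 to 1.29. It set the knockdown arrays apart in both lines and in opposite directions. The same ratio for GAPDH was 0.978 and 0.995 under siKDM3A in SW780, inside the controls at 0.960 to 1.000, and 0.894 and 0.896 in A549, below the controls at 0.914 to 0.932. The part of these ratios in the calls above was not tested. Epithelial marker sums ran from 124949 to 137898 under siKDM3A in SW780, against 119901 to 179449, and from 65033 to 66894 in A549, against 60594 to 66219. Of 6 epithelial markers 2 were called lower in SW780, where 6.15% of all genes were. Fibroblast markers summed to 675.5 and 692.4 under siKDM3A in SW780, against 505.6 to 938.2, and to 1010 and 1136 in A549, against 1351 to 1377. Lung markers summed to 324.3 and 421.2 under siKDM3A in SW780, against 352.4 to 498.4, and to 1028 and 1137 in A549, against 1308 to 1603. Both sums were below all controls in A549, and their part in the results was not tested. Leukocyte markers summed to at most 323 on any array. In RNA from a whole culture, fewer cells with a transcript and less of it per cell cannot be told apart.

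The wider pathway was read from 7 lists with 148 other genes, of which 110 passed the filter. In SW780, 3 rose and 9 fell, 10.9% of those tested against 11.8% of all genes, with a median change of -0.01 against 0.03 over all genes. In A549, 7 rose and 7 were called lower, 1 of them (FABP4) on signals under the filter value, 12.7% against 11.7%, with a median of 0.02 against -0.02. Both shares were near those of all genes. After scaling to a common median, which moved the median of all genes to 0.13 in A549, 25 of them were higher and 4 lower in A549, so the even split there depends on the scaling. Of those passing, 4 did so in both lines. HADH and AQP3 were lower in both, TXNIP was higher in both, and ACAA2 was lower in SW780 and higher in A549. The share of all genes that passed in both lines was not computed, so this count has nothing to be set against.

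**Figure D5:**
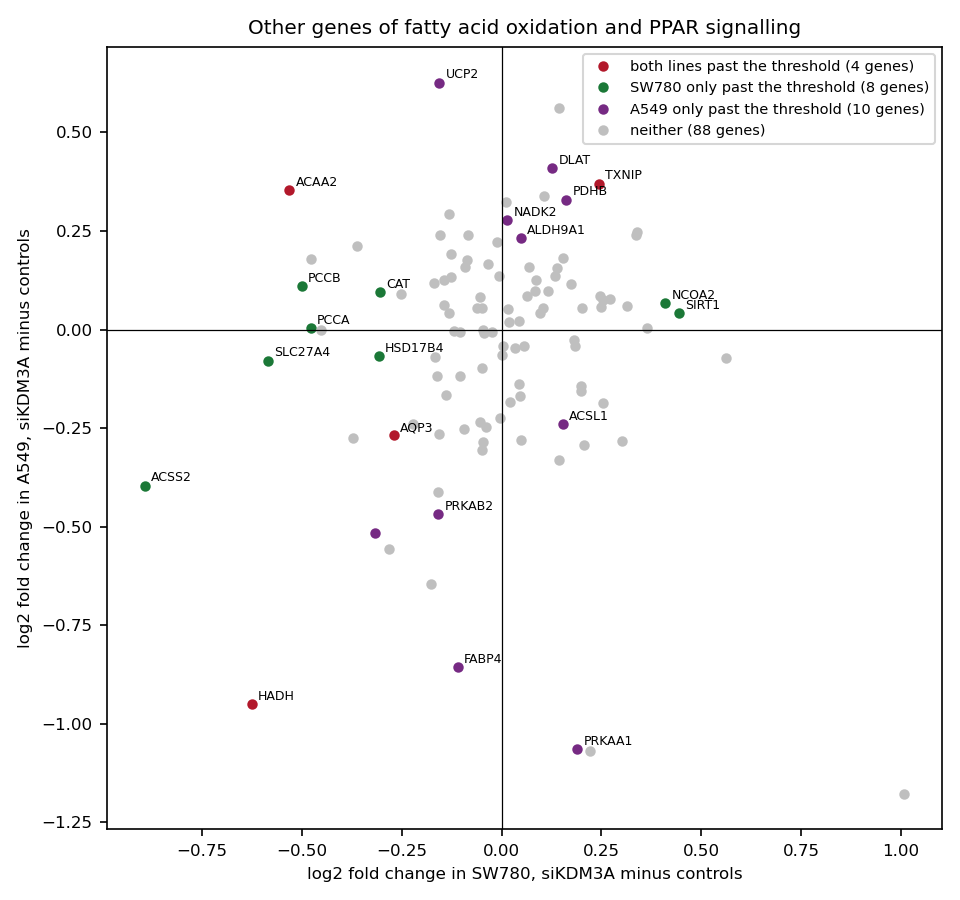
Log2 fold change under siKDM3A in SW780 (x axis) and A549 (y axis) for the 110 other pathway genes tested, coloured by the line or lines in which the adjusted p was under 0.05, with the genes named in the text labelled. 4 genes passed in both lines, 8 in SW780 alone, 10 in A549 alone and 88 in neither, and these shares were not computed over all genes. The A549 value of FABP4 rests on signals under the filter value.

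Among 22 other mitochondrial beta-oxidation enzymes, 4 fell and none rose in SW780, and 2 rose and 1 fell in A549. These were 18.2% of the list in SW780, against 11.8% of all genes, and 13.6% in A549, against 11.7%. HADH, the short-chain hydroxyacyl-CoA dehydrogenase, had 2269.5 and 2745.2 under siKDM3A in SW780, against 3592.5 to 4117.3 in the controls, and 935.2 and 727.6 in A549, against 1324.6 to 2237.0. It was below all controls in both lines (-0.63 ± 0.17, adjusted p = 0.0291, in SW780 and -0.95 ± 0.17, adjusted p = 0.00294, in A549). Of its 3 probe sets, 2 were called in both lines, 211569_s_at at -0.79 in SW780 and -0.998 in A549, and 201035_s_at in neither. The SW780 call of the main probe set ended without either SW780 siKDM3A array (adjusted p = 0.247 and 0.0735) or either SW780 siEGFP array (0.0735 and 0.0665), and the A549 call without A549 siKDM3A replicate 2 (0.0730).

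ACAA2, a mitochondrial thiolase of the last step of beta-oxidation, moved in opposite directions. It had 379.1 and 336.7 under siKDM3A in SW780, against 473.7 to 553.1, and 1982.5 and 2180.3 in A549, against 1563.7 to 1697.4. The knockdown arrays lay below all controls in SW780 (-0.53, adjusted p = 0.00241) and above them in A549 (0.35, adjusted p = 0.0240). Its other kept probe sets, 202002_at and 241114_s_at, were called in neither line, and the A549 call ended without A549 siKDM3A replicate 1 (0.0817) or 2 (0.259), A549 siEGFP replicate 2 (0.0663) or A549 siFFluc replicate 1 (0.0768). PCCA and PCCB, the subunits of propionyl-CoA carboxylase, which handles odd-chain products, fell in SW780 (-0.48 and -0.50) and not in A549 (0.0038 and 0.11). NADK2, the mitochondrial NAD kinase, rose in A549 (0.28).

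Of 15 genes of fatty acid uptake, binding and activation, 2 were called lower in each line and none higher in either. That was 13.3% in each line, against 11.8% of all genes in SW780 and 11.7% in A549. In SW780 these were ACSS2, which activates acetate (-0.89), and SLC27A4, a fatty acid transporter (-0.58). In A549 they were ACSL1, a long-chain acyl-CoA synthetase (-0.24), and FABP4, a fatty acid binding protein. ACSL1 lost its A549 call in 13 of 24 alternatives. Neither of its kept probe sets was called there in limma's fit over probe sets (adjusted p = 0.0585 and 0.150). FABP4 had 19709 to 21932 under siKDM3A in SW780, against 18423 to 27132 in the controls, and passed the filter through that line alone. In A549 it had 2.3 and 2.0 under siKDM3A, against 11.4 to 30.3, all under the filter value, so its call there gives no size of change, and its second probe set, 235978_at, was not called. Of 8 other carnitine shuttle genes, ALDH9A1, an enzyme of carnitine synthesis, rose in A549 (0.23), which was 12.5% against 11.7% of all genes. None of the 8 passed in SW780 by limma, against 11.8% of all genes, with 1 at an unadjusted p under 0.05. Of 13 genes of peroxisomal oxidation, HSD17B4, the bifunctional enzyme, fell in SW780 (-0.31), which was 7.69% against 11.8% of all genes. None of the 13 passed in A549, against 11.7% of all genes, with 0 at an unadjusted p under 0.05.

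Among 15 receptors and partners of the PPAR and RXR family, NCOA2, a nuclear receptor coactivator (0.41), and SIRT1, a deacetylase (0.44), rose in SW780. They made up 13.3% of the list, against 11.8% of all genes. The 3 other kept NCOA2 probe sets were not called, the mean of all 4 gave 0.23 (adjusted p = 0.338), and leaving out SW780 siKDM3A replicate 1 gave 0.37, no longer past the threshold (adjusted p = 0.0523). SIRT1 had 578.0 and 441.0 under siKDM3A, which overlapped the controls at 312.1 to 482.1. It lost its call in 14 of 24 alternatives, among them siFFluc as the only control (0.25, adjusted p = 0.299) and the loss of SW780 siKDM3A replicate 1 (0.25, adjusted p = 0.383), of SW780 siFFluc replicate 2 or of any siEGFP or A549 siKDM3A array. None of the 15 passed in A549, against 11.7% of all genes, with 4 at an unadjusted p under 0.05. PPARG differed by -0.13 in SW780 and 0.19 in A549, PPARD by -0.16 and -0.12, and RXRA by -0.04 and -0.25, with no call. PPARD was higher under siFFluc than under siEGFP in SW780 by 0.41 (adjusted p = 0.0226).

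Of 17 other known PPAR targets, 1 rose and 2 fell in SW780, and 2 rose and 1 fell in A549. That was 17.6% in each line, against 11.8% of all genes in SW780 and 11.7% in A549. TXNIP, which curbs glucose uptake, rose in both (0.24 and 0.37), and AQP3, a glycerol channel, fell in both (-0.27 in each). The other kept TXNIP probe sets, 201008_s_at and 201009_s_at, were called in neither line. TXNIP lost both calls with siFFluc as the only control (adjusted p = 0.0855 in SW780 and 0.0958 in A549). It also lost both with the mean of its probe sets (0.0574 and 0.144). In SW780, TXNIP lost its call in 9 of 24 alternatives and AQP3 in 7. AQP3 had 2 of 3 kept probe sets called lower in each line. UCP2, an inner membrane carrier, had 1956.8 and 1798.8 under siKDM3A in A549, against 1110.5 to 1307.7 (0.63, adjusted p = 0.00437), and 829.5 and 1009.7 in SW780, against 866.6 to 1370.0 (-0.16, not called). Its second probe set, 208997_s_at, was not called in A549 (0.20, adjusted p = 0.371). CAT, which breaks down hydrogen peroxide, fell in SW780 (-0.30) on both probe sets. ANGPTL4 and PLIN2, widely used readouts of PPAR activity, did not pass in A549, at 0.09 and -0.07, nor did PLIN2 in SW780 (-0.17), where ANGPTL4 lay under the filter value on all arrays (at most 28.3). These readouts and the receptors PPARG, PPARD and RXRA lie outside the rule for named genes and are given for their known roles.

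Of 20 genes of pyruvate dehydrogenase and malonyl-CoA control, none passed in SW780 by limma on its main probe set, against 11.8% of all genes, with 5 at an unadjusted p under 0.05. In A549, 2 rose and 3 fell, 25% of the list against 11.7% of all genes. DLAT and PDHB, subunits of pyruvate dehydrogenase, rose in A549 (0.41 and 0.33). All 3 DLAT probe sets were called higher in A549, and 213149_at also in SW780 (0.41, adjusted p = 0.00851). In A549 the main DLAT probe set had 2208.2 and 2189.6 under siKDM3A, against 1269.2 and 1284.3 under siFFluc and 2262.0 and 2017.5 under siEGFP. It thus overlapped siEGFP there and differed between the controls by -0.74. PRKAA1, the catalytic alpha 1 subunit of AMP-activated kinase, had 518.5 and 512.8 in A549, against 838.0 to 1240.0 (-1.06 ± 0.14, adjusted p = 3.52e-04), and 1074.1 and 1205.9 in SW780, against 921.2 to 1181.4. Its other 3 kept probe sets were not called in A549, at -0.64, -0.41 and -0.01. PRKAB2, a regulatory subunit of the same kinase, fell in A549 (-0.47), and 1 of its other probe sets, 214474_at, was called lower in SW780 (-0.84, adjusted p = 0.0211) and not in A549 (-0.53). Also lower in A549 was ACACA (-0.52), the enzyme which makes the malonyl-CoA that inhibits CPT1A. ACACA lies outside the rule for named genes and was picked after its value was seen.

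Of the named pathway genes, 2 of 12 calls in SW780 (ACAA2 and PCCB) and 4 of 13 in A549 (DLAT, FABP4, PRKAA1 and TXNIP) stayed past the threshold whichever 1 array was left out, FABP4 on signals too dim to read. Against each control siRNA alone, 5 pathway genes were called in the same direction in SW780 (ACAA2, ACSS2, NCOA2, PCCB and SLC27A4) and 5 in A549 (ACACA, FABP4, HADH, PRKAA1 and UCP2). Among the members, ACADM, CPT1A and PDK4 met this in SW780, where 3.74% of all genes did, and CPT1A in A549, where 4.39% did. With 1 array left out at a time, the number of members called ran from 2 to 5 in SW780 and from 1 to 2 in A549, and CPT1A was the only member called in every such fit.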

How the data were processed

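The authors' deposited values were MAS5 signals, a linear intensity per probe set, from 12 Affymetrix U133 Plus 2.0 arrays. MAS5 is named per the submitters' processing notes, with a version not given in the sources used here. Each array had a trimmed mean (2% off each end) of 500.1, so no further scaling was applied. Of 54675 probe sets, 62 controls were left out, and 41091 of the rest carried 1 gene symbol in the 2016 platform annotation, 1801 several and 11721 none. Symbols were updated through RefSeq, where 41037 matched. Probe sets with a mean signal under the 40th percentile (33.6) were dropped, and the brightest of a gene stood for it, giving 14061 genes. limma 3.58.1 in R 4.3.3 fitted 6 group means to log2(signal + 16), with eBayes and an intensity trend. The same fit was run on 32768 probe sets. Both lines shared 1 estimate of spread. The procedure was tested on simulated data.

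The members and lists were chosen with earlier results of these data known. Named pathway genes were those past the threshold, at most 4 of smallest p per list and line. The 4 genes nearest PPARA were also named. Same-numbered arrays did not deviate together (15 correlations, -0.0296 to 0.0189), and the main fit did not pair samples by number. Such correlations cannot show whether same-numbered arrays were prepared together. Alternatives changed the added constant, filter, scaling, choice of probe set, trend, arrays fitted, control siRNA and replicate block, and left out each array in turn. Promoter sequences are from RefSeq (GRCh38.p14). Protein sequences were not used here.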

Additional observations from a re-analysis of the deposited data

Results flagged for a closer look

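The response to siKDM3A differed between the lines, by limma's test of the difference with adjustment over all 14061 genes, for 5 named pathway genes and for none of the 8 members. Of the 110 other pathway genes tested, 4.55% were called by this test, against 2.75% of all genes. PRKAA1 differed by 1.25 ± 0.19 (SW780 minus A549, log2, adjusted p = 0.00755), ACAA2 by -0.88 ± 0.13 (adjusted p = 0.00525) and UCP2 by -0.78 ± 0.17 (adjusted p = 0.0325). PCCB differed by -0.61 ± 0.11 (adjusted p = 0.0142). FABP4 passed the same test (0.75, adjusted p = 0.0421), but all its A549 signals lay under the filter value, so that number measures no difference in response.

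All 5 calls depended on the processing. Of 23 alternatives, ACAA2 lost its call in 2, PCCB and PRKAA1 in 5 each, UCP2 in 13 and FABP4 in 15. ACAA2 was at -0.07 with the mean of its kept probe sets (adjusted p = 0.936), and lost its call without A549 siKDM3A replicate 2 (adjusted p = 0.0559). PRKAA1 was at 0.68 with the mean of its probe sets (adjusted p = 0.0836). PRKAA1 also lost its call without A549 siKDM3A replicate 2 (0.0559) or SW780 siKDM3A replicate 2 (0.0546), and PCCB without either A549 siKDM3A array (0.0707 and 0.0939) or SW780 siKDM3A replicate 1 (0.0629). UCP2 lost its call without any 1 siKDM3A or siEGFP array of either line or either A549 siFFluc array, with adjusted p up to 0.135. The second UCP2 probe set, 208997_s_at, gave -0.33 (adjusted p = 0.351).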

How the results depend on the processing

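No value called in the main fit or in an alternative changed sign between the 2. Values called in neither could change sign, as CPT2 in SW780 did (-0.09 to 0.15 over the alternatives). Of the values recomputed under alternatives, 2878 kept their side of the threshold, those called in neither fit among them. A call was lost in 228 and gained in 33. For PPARA in A549 the difference was 0.32 with the mean of its probe sets (adjusted p = 0.453) and 0.51 with siFFluc as the only control (adjusted p = 0.279), and ran from 0.93 to 1.38 with 1 array left out. In SW780 it passed with log2(signal + 64) (0.55, adjusted p = 0.0408) and ran from 0.57 to 0.74 with 1 array left out. PPARA probe sets called in A549 numbered 1 with log2(signal + 64), without a filter or with the arrays of the line alone, 0 with siFFluc alone, and 0 to 2 with 1 array left out. Members called in SW780 numbered 3 without the trend, with the line's arrays alone or with siEGFP alone (2 to 5 with 1 array left out). In A549 it was 1 with the mean of probe sets or siFFluc alone (1 to 2). Averaged over lines it was 3 with siEGFP alone (3 to 6). Between the lines it was 5 to 6 with 1 array left out, and 7 under median scaling or without a filter. For the difference of responses it was 2 under median scaling, ACADVL and HADHA (0 to 1 with 1 array left out). Between the controls it was 0 in A549 with the mean of probe sets, without the trend or with the line's arrays alone (0 to 1), and 0 to 2 in SW780.

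All genes called in SW780 numbered 1663, and 876 without the trend, 852 with the line's arrays alone and 871 with siEGFP alone (737 to 2605 with 1 array left out). In A549 they numbered 1642, and 2618 under median scaling, 879 without the trend and 2616 with the line's arrays alone (524 to 2379). Median scaling moved the median of all genes to -0.07 in SW780 and 0.13 in A549, and gave 1 higher and 10 lower pathway genes in SW780 and 25 and 4 in A549. With the replicate block, PPARA in A549 was 1.15 (adjusted p = 0.00925), 1653 genes were called in SW780 and 1630 in A549, and of the named calls NADK2 in A549 was lost (adjusted p = 0.0587). The causes were not tested. With 2 arrays a group and dim PPARA, PPARGC1A and SW780 PDK4 signals, small changes could not be resolved.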
